A study of Mus musculus with 12 samples.

Results

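The 7 beta-tubulin genes Tubb2a, Tubb2b, Tubb3, Tubb4a, Tubb4b, Tubb5 and Tubb6, out of 35580 genes with values, were followed in mouse embryonic stem cells (ESCs) of the R1 line with and without Cidea, which encodes a lipid droplet protein of the CIDE family. The members were listed by name. Tubb6, the nearest expressed gene downstream of Cidea, was selected on its higher level in CIDEA KO in these same libraries, so its difference between CIDEA KO and WT is given as a description with no test. WT was the parental line, and CIDEA KO was 1 subclone, 19.7, homozygous for a CRISPR-Cas9 deletion of the whole Cidea locus (Cidea -/-). Each was sampled as undifferentiated ESCs grown with LIF in 10% FBS (0 h) and as spheroids after 24 h and 48 h in growth factor reduced Matrigel with 15% FBS and no LIF. Each of the 6 groups held 2 libraries of stranded, poly(A)-selected RNA. Since CIDEA KO was 1 clone, clone and genotype cannot be told apart, and in spheroids time, matrix, serum and LIF withdrawal changed together.

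Beta-tubulin pairs with alpha-tubulin to form the building block of microtubules, the hollow filaments that carry cargo, shape the cell and form the mitotic spindle. Mammals make several beta isotypes from separate genes, and they differ mainly in the acidic tail at the end of the protein, where most tubulin modifications are placed. Tubb5 and Tubb4b are the broadly expressed isotypes, Tubb2a and Tubb2b are best known from neurons, Tubb3 is widely used as a neuron marker, Tubb4a is the isotype of brain and myelinating cells, and Tubb6 is an isotype of fibroblasts and muscle whose raised level disturbs the microtubule network. Cells also read their own tubulin content: when free tubulin dimer is in excess, the first residues of a nascent tubulin chain are bound and the messenger RNA is degraded on the ribosome, so that the isotypes' messengers are tied to a common pool.

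The start of each coding sequence is shown because this autoregulation reads it, and the end because it separates the isotypes. In all 7 genes the first 4 codons encode the same residues. The first 30 coding bases of 6 members (GRCm38, GENCODE vM21 transcripts, 5′ to 3′), with the first 4 codons in capitals, were:
Tubb2a: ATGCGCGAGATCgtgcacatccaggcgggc
Tubb2b: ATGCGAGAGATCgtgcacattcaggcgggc
Tubb3: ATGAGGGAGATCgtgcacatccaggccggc
Tubb4a: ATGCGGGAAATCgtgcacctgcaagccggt
Tubb4b: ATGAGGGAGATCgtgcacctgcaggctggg
Tubb5: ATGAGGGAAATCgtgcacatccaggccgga
The last 42 coding bases, which encode the end of the acidic tail, with the stop codon in capitals, were:
Tubb2a: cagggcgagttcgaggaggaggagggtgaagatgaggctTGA
Tubb2b: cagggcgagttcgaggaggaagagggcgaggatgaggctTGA
Tubb3: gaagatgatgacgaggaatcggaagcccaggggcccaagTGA
Tubb4a: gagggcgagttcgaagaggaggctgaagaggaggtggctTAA
Tubb4b: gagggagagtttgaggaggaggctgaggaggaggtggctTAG
Tubb5: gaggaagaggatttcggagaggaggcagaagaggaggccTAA
The Tubb2a and Tubb2b ends are nearly the same, as are those of Tubb4a and Tubb4b, while Tubb3 has an ending of its own.

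All 7 genes have 4 exons and coding sequences of 1335 to 1353 bases. Over the aligned coding bases, Tubb2a and Tubb2b were 96.5% identical, with 47 differing bases, and the other pairs were between 80.2% (Tubb5 and Tubb6) and 85.9% (Tubb3 and Tubb6) identical. This bears on how reads could be assigned, since Kallisto divides reads among transcripts by shared stretches of 31 bases. Only transcripts that had values were searched. Of its 31-base stretches, Tubb4b shared 70.4% with other genes, above all the pseudogenes Tubb4b-ps1 (54.5%) and Tubb4b-ps2 (32.6%). Tubb2a shared 56.4%, with Tubb2b alone 51.1%, and Tubb2b shared 45.9%. The split between Tubb2a and Tubb2b is therefore uncertain, and their sum is given beside the results that depend on it. For Tubb3, Tubb4a, Tubb5 and Tubb6 the shared part was 1.73% to 4.47%.

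Promoter sequence from RefSeq (GRCm38.p6) was matched for 5 members, Tubb2a, Tubb3, Tubb4a, Tubb4b and Tubb5. A pair is shown since these are a widely expressed isotype that was high in all libraries and a neuronal one that was low and fell. Both are the 150 bases ending next to the annotated start on the minus strand, 5′ to 3′, with matches in capitals on either strand to the CCAAT box, to the GC box GGGCGG, to the TATA box TATAAA and to the cAMP response element TGACGTCA. The windows are chr2:25224703-25224852 for Tubb4b and chr13:34078009-34078158 for Tubb2a.
Tubb4b: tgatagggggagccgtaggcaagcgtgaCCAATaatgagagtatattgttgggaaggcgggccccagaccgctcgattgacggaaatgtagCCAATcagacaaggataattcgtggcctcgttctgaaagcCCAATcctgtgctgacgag
Tubb2a: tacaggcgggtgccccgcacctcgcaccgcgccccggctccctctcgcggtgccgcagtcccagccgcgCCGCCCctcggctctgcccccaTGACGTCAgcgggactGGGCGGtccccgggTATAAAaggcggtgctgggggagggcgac
Over the 250 bases before the start, on both strands and with each motif counted on its own, CCAAT was present 5 times in Tubb4b, 2 times in Tubb5 and 1 time in Tubb3, and in 33.85% of 32851 promoters of that length. GGGCGG was present 2 times each in Tubb2a and Tubb3 and 1 time in Tubb4b, and in 32.74% of all promoters. TATAAA (12.37% of all promoters) and TGACGTCA (1.55%) were each present 1 time, in Tubb2a. These matches are letters in a window and describe no binding.

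The data and their quality were as follows. Total estimated counts per library ran from 28998188 to 38509860. The members' estimated counts ranged from 48224 to 76033 for Tubb5, 22061 to 35528 for Tubb4b, 4753 to 14574 for Tubb2b, 1762 to 5291 for Tubb3, 1043 to 2797 for Tubb6, 607 to 1993 for Tubb2a and 25 to 219 for Tubb4a, so that Tubb4a rests on the fewest reads. Cidea, the deleted gene, had estimated counts of 89 and 67 in WT at 0 h, 117 and 46 at 24 h and 20 and 21 at 48 h, and 0 in all 6 CIDEA KO libraries. CIDEA KO 24 h replicate 1 stood apart, with 15650 genes above 0 against 17730 to 19944 in the other libraries, so results that rest on it are also given without it. Summed TPM of 8 ESC markers was 5815 to 6201 in WT at 0 h and 3785 to 3871 at 48 h. In CIDEA KO it was 6147 to 6534 at 0 h and 3811 to 4294 at 48 h. By the edgeR test used below, 7 of the 8 were lower and 1 higher at 48 h than at 0 h in each genotype. Over all genes 23.6% (WT) and 25.0% (CIDEA KO) were called. Between genotypes 1 was higher at 0 h, 1 at 24 h and 0 at 48 h (1.26%, 1.46% and 0.671% of all genes called). The study describes the libraries of a group as biological replicates from independent samples, and each group has only 2.

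Levels are given in TPM, a unit that divides reads by transcript length and scales all libraries to one total, and so allows one gene to be set beside another. Tubb5 and Tubb4b dominated. In WT at 0 h, Tubb5 was at 967 ± 31.5 TPM and Tubb4b at 783 ± 22.5 TPM (SD, n = 2 here and for all group means), followed by Tubb2b at 332 ± 6.62, Tubb3 at 135 ± 8.87, Tubb2a at 55.6 ± 10.3, Tubb6 at 32.3 ± 2.24 and Tubb4a at 1.53 ± 0.0458 TPM. The upper 3 places were the same in all 6 groups. The lower places were not: in WT at 24 h, Tubb2a at 48.1 ± 1.61 TPM and Tubb6 at 46.8 ± 0.834 TPM did not differ beyond their spread. In CIDEA KO, Tubb6 was above Tubb2a in every library, and at 48 h also above Tubb3, at 62.5 ± 5.23 against 48.5 ± 2.10 TPM, whereas in WT at 48 h Tubb3 was at 61.0 ± 5.96 and Tubb6 at 47.0 ± 5.44 TPM. Of the other beta-tubulin genes, Tubb1, the platelet isotype, and 3 pseudogenes summed to 0.0362 to 0.631 TPM.

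**Figure D1:**
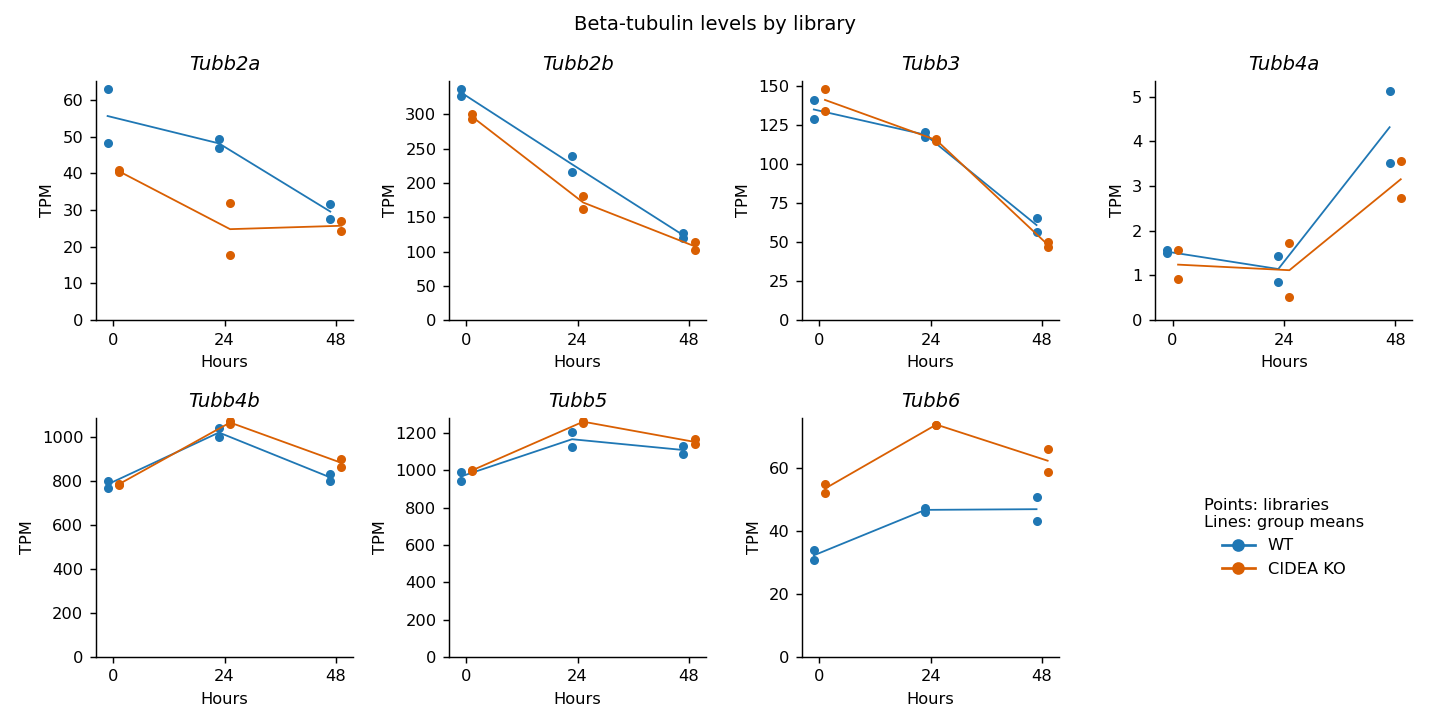
Level of each beta-tubulin gene (TPM, linear axes from 0) against hours, with points for the 12 libraries and lines through the group means, WT in blue and CIDEA KO in orange. Tubb2b and Tubb3 are lowest at 48 h in both genotypes, the group means of Tubb4b and Tubb5 are highest at 24 h, and the Tubb6 points of CIDEA KO (52.1 to 74.0 TPM) lie above all those of WT (30.7 to 50.9 TPM).

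The first question was how the isotypes changed as ESCs became spheroids. Tubb2a, Tubb2b and Tubb3 fell, Tubb4b and Tubb5 were at or above their 0 h level, Tubb6 rose, and Tubb4a, the least abundant, was highest at 48 h. In WT, Tubb2b fell from 337 and 328 TPM at the start to 239 and 216 TPM by 24 h, and reached 120 and 128 TPM by 48 h, with no overlap between times. Tubb3 was at 141 and 129 TPM at 0 h, 120 and 117 TPM at 24 h and 65.2 and 56.8 TPM at 48 h, so that most of its fall came in the second day. Tubb2a was at 62.8 and 48.3 TPM, then 47.0 and 49.3 TPM, then 27.4 and 31.7 TPM, overlapping between 0 h and 24 h. Over the whole 48 h the log2 fold changes of these genes, from edgeR's quasi-likelihood test on estimated counts with Benjamini-Hochberg adjustment over 17424 genes, were -1.42 (adjusted p = 4.1e-11) for Tubb2b, -1.17 (adjusted p = 7.7e-09) for Tubb3 and -0.94 (adjusted p = 0.0034) for Tubb2a. The sum of Tubb2a and Tubb2b gave -1.36.

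The broad isotypes behaved otherwise. Tubb4b rose from 767 and 799 TPM to 1037 and 1001 TPM at 24 h, a log2 fold change of 0.33 (SE 0.057, adjusted p = 0.00034), and fell back to 799 and 831 TPM at 48 h, a change of -0.29 (adjusted p = 0.0022). At 48 h it overlapped its starting level. Tubb5 was at 989 and 945 TPM at 0 h, 1207 and 1127 TPM at 24 h and 1130 and 1089 TPM at 48 h, higher than at 0 h by a log2 fold change of 0.21 (adjusted p = 0.011) at 24 h and 0.18 (adjusted p = 0.022) at 48 h, the latter in 13 of 20 alternative analyses. Tubb6 rose with them, from 33.9 and 30.7 TPM to 47.4 and 46.2 TPM at 24 h and 43.2 and 50.9 TPM at 48 h. Its log2 fold change was 0.48 (SE 0.11, adjusted p = 0.0058) at 24 h and 0.52 (adjusted p = 0.0019) at 48 h, and between 24 h and 48 h its change was 0.04 (adjusted p = 0.92). Tubb4a, near the floor, was at 1.499 and 1.56 TPM, then 0.852 and 1.43 TPM, then 5.12 and 3.51 TPM, and from 24 h to 48 h its log2 fold change of 1.94 passed the test (adjusted p = 0.045) in the fit over all groups but in 8 of 20 alternative analyses.

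Counted over the 7 members, 3 were higher and 1 lower in WT at 24 h than at 0 h, where 15.0% of all genes tested were called. From 24 h to 48 h, 1 was higher and 3 lower (8.14% of all genes). From 0 h to 48 h, 2 were higher and 3 lower (23.6% of all genes). The median log2 fold changes over the members were -0.24, -0.29 and 0.04, against 0.00, 0.01 and 0.02 over all genes. These comparisons share libraries with one another.

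CIDEA KO went through the same steps from its own 0 h libraries. Tubb2b was at 301 and 293 TPM, then 162 and 181 TPM, then 102 and 114 TPM, and its log2 fold changes were -0.82 (adjusted p = 1.5e-07) from 0 h to 24 h and -0.58 (adjusted p = 3.1e-05) from 24 h to 48 h. Tubb3 was at 148 and 134 TPM, then 115 and 116 TPM, then 47.0 and 49.95 TPM, with a change from 0 h to 48 h of -1.498 (adjusted p = 1.9e-10). Tubb2a was at 40.8 and 40.4 TPM, then 17.7 and 31.8 TPM, then 24.4 and 27.0 TPM. Its 24 h libraries were the farthest apart of any Tubb2a pair in relation to their mean, the lower one being the library that stood apart. The log2 fold change of Tubb2a from 0 h to 24 h was -0.76 (adjusted p = 0.017), and without that library it was -0.42 (adjusted p = 0.085). From 0 h to 48 h it was -0.61 (adjusted p = 0.039), which passed in 11 of 20 alternative analyses. The gap between the CIDEA KO 24 h libraries also bears on Tubb2a in WT through the shared estimate of spread. From 24 h to 48 h the change in WT was -0.67 (adjusted p = 0.058). It was also -0.67 with either CIDEA KO 24 h library left out. This fall passed the test in 8 of 20 alternative analyses. When only the groups compared were fitted, without the CIDEA KO libraries, it was -0.67 (edgeR, adjusted p = 0.0021).

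In CIDEA KO, too, Tubb4b and Tubb5 were higher at 24 h than at 0 h. Tubb4b was at 787 and 780 TPM, then 1058 and 1071 TPM, then 864 and 898 TPM, rising by a log2 fold change of 0.41 (adjusted p = 3e-05) and then falling by -0.19 (adjusted p = 0.043). This fall passed the test in 8 of 20 alternative analyses, and without the library that stood apart it was -0.18 (adjusted p = 0.15). Tubb5 was at 1003 and 996 TPM, then 1256 and 1266 TPM, then 1140 and 1166 TPM, and was higher than at 0 h by 0.28 (adjusted p = 0.00091) at 24 h and 0.25 (adjusted p = 0.0013) at 48 h. Tubb6 rose from 52.1 and 55.1 TPM to 74.0 and 74.0 TPM at 24 h (log2 fold change 0.43, adjusted p = 0.0093) and stood at 58.8 and 66.2 TPM at 48 h, where its change from 0 h of 0.27 did not pass the test (adjusted p = 0.091). Tubb4a was at 0.509 to 3.57 TPM, and none of its changes in CIDEA KO passed the test. Of the 7 members, 3 were higher and 3 lower at 24 h than at 0 h (18.6% of all genes called), 0 higher and 3 lower at 48 h than at 24 h (9.95%), and 2 higher and 3 lower at 48 h than at 0 h (25.0%), with medians of -0.21, -0.16 and 0.22 against -0.03, 0.03 and 0.01 over all genes.

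**Figure D2:**
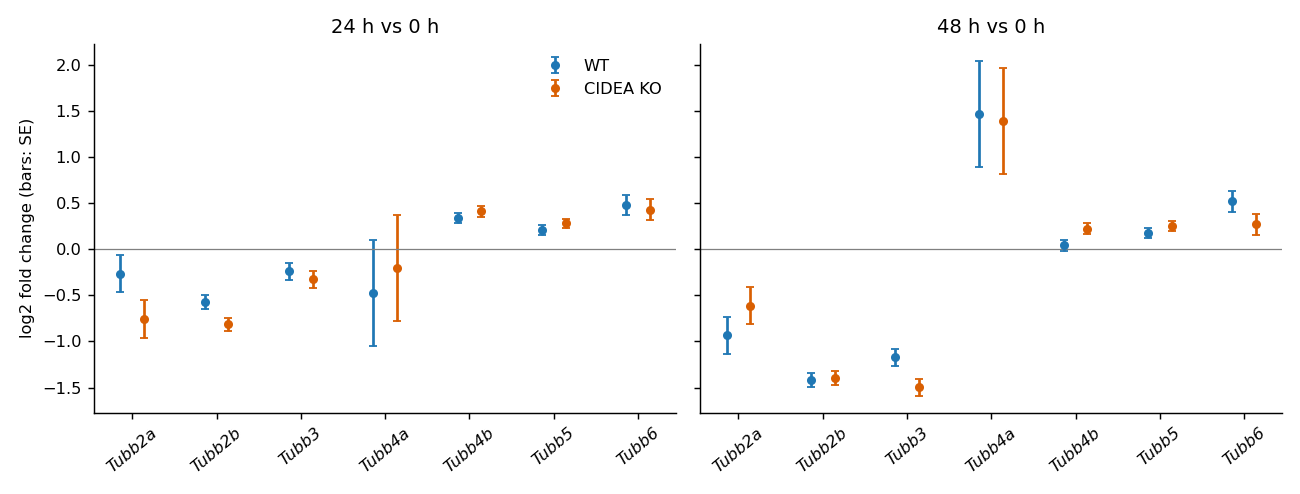
log2 fold change of each beta-tubulin gene against 0 h at 24 h (left) and 48 h (right), with points for the edgeR estimate and bars for its SE, WT in blue and CIDEA KO in orange. Tubb2b and Tubb3 are below 0 in both genotypes and lower at 48 h than at 24 h, Tubb5 is above 0 throughout, and the widest bars belong to Tubb4a, which has the fewest counts.

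Whether the course differed between genotypes was tested as an interaction, the difference between CIDEA KO and WT at a later time less that at 0 h. By edgeR 0 of 7 members passed at 24 h (0.0115% of all genes called) and 0 of 7 at 48 h (0.0402%). At an unadjusted p under 0.05 there were 1 and 2, and DESeq2 also called 0 and 0. The interaction at 48 h was -0.32 (adjusted p = 0.75) for Tubb3 and 0.18 (adjusted p = 0.81) for Tubb4b, and at 24 h it was -0.49 (adjusted p = 0.88) for Tubb2a. The last value was -0.16 (adjusted p = 1) without the library that stood apart, and -0.93 (adjusted p = 0.0069) without CIDEA KO 24 h replicate 2, which leaves that library as the lone 24 h sample.

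The second comparison was CIDEA KO against WT at each time. Tubb6 was picked for this difference. It was at 52.1 and 55.1 TPM in CIDEA KO against 33.9 and 30.7 TPM in WT at 0 h, at 74.0 and 74.0 against 47.4 and 46.2 TPM at 24 h, and at 58.8 and 66.2 against 43.2 and 50.9 TPM at 48 h. The groups did not overlap at any time, and the lowest CIDEA KO library of any time was above the highest WT library of any time. The ratios of group means were 1.66, 1.58 and 1.33, and the fitted log2 fold changes were 0.69 (SE 0.11), 0.64 (SE 0.11) and 0.44 (SE 0.11), with 0.59 (SE 0.064) for the mean of the 3 times. In 20 alternative analyses the value ranged from 0.61 to 0.78 at 0 h, 0.61 to 0.67 at 24 h and 0.31 to 0.57 at 48 h.

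Among the other 6 members, the pair Tubb2a and Tubb2b was lower in CIDEA KO. At 24 h Tubb2b was at 162 and 181 TPM in CIDEA KO and 239 and 216 TPM in WT, a log2 fold change of -0.44 (SE 0.075, adjusted p = 0.0036). Tubb2a was at 17.7 and 31.8 against 47.0 and 49.3 TPM, a log2 fold change of -0.99 (SE 0.20, adjusted p = 0.025). In neither gene did the groups overlap. Without the library that stood apart the values were -0.39 for Tubb2b and -0.65 for Tubb2a, with 1 library left for CIDEA KO at 24 h. With reads of the pair summed, so that their split no longer mattered, the change was -0.50 (SE 0.077, adjusted p = 0.0015). At 0 h the values were -0.20 (adjusted p = 0.32) for Tubb2b and -0.50 (adjusted p = 0.39) for Tubb2a, and at 48 h -0.17 (adjusted p = 0.58) and -0.18 (adjusted p = 1). Over the mean of the 3 times Tubb2b changed by -0.27 (SE 0.043, adjusted p = 0.00067), Tubb2a by -0.55 (SE 0.12, adjusted p = 0.012) and their sum by -0.30 (adjusted p = 0.00026). Across the 20 alternative analyses at 24 h, Tubb2a passed in 15 (adjusted p 1.2e-09 to 0.21) and Tubb2b in 16 (2e-06 to 0.15), and neither passed without WT 24 h replicate 1, nor Tubb2a without WT 24 h replicate 2 (-0.95, adjusted p = 0.14).

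Tubb3, Tubb4a, Tubb4b and Tubb5 did not pass the test between genotypes at any time. For the mean of the 3 times the log2 fold change was 0.04 for Tubb4b (95% interval -0.03 to 0.11, adjusted p = 0.58), 0.05 for Tubb5 (-0.01 to 0.12, adjusted p = 0.45) and -0.12 for Tubb3 (-0.22 to -0.01, adjusted p = 0.25). At 48 h Tubb3 was at 47.0 and 49.95 TPM in CIDEA KO and 65.2 and 56.8 TPM in WT, which did not overlap, with a log2 fold change of -0.30 (adjusted p = 0.21). Of the 6 members without Tubb6, edgeR called 0 at 0 h (1.26% of all genes called), 2 lower at 24 h (1.46%), 0 at 48 h (0.671%) and 2 lower over the mean of the 3 times (5.03%). At 0 h and 48 h, 2 and 3 of them had an unadjusted p under 0.05, and DESeq2 called 0 at both. These comparisons use the same libraries as the time courses above.

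**Figure D3:**
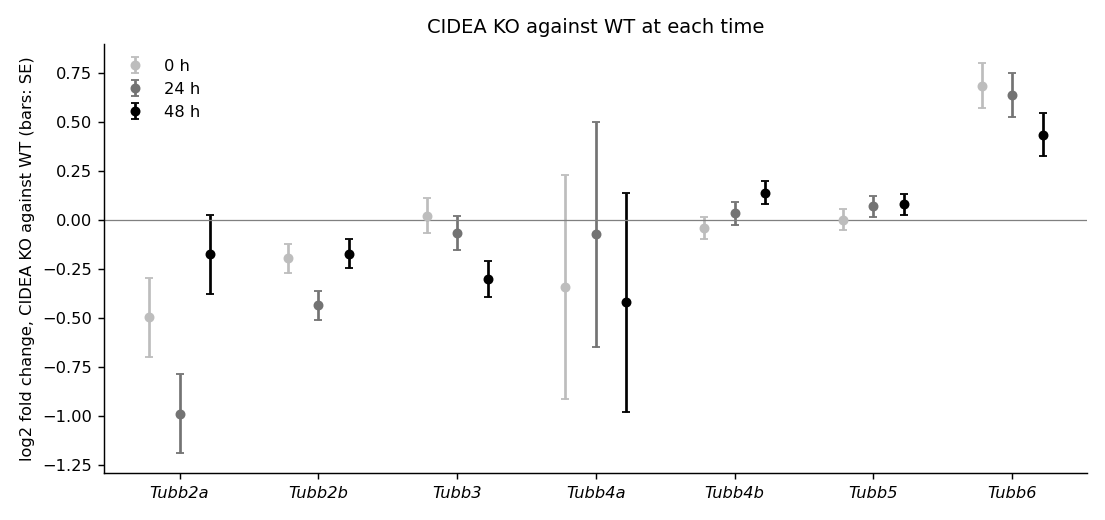
log2 fold change of CIDEA KO against WT for each beta-tubulin gene at 0 h, 24 h and 48 h (light to dark), with bars for the SE of the edgeR estimate. Tubb6, which was picked for this difference, is above 0 at each time (0.69, 0.64 and 0.44), Tubb2a and Tubb2b are below 0, and Tubb4b and Tubb5 lie close to 0.

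The family total was then set against each member's share of it. Summed over the 7 genes, WT was at 2334 and 2281 TPM at 0 h, 2699 and 2558 TPM at 24 h and 2189 and 2190 TPM at 48 h. CIDEA KO was at 2334 and 2300 TPM, 2683 and 2742 TPM, and 2240 and 2323 TPM. In TPM the total was highest at 24 h in both genotypes, rising by 13.9% in WT and 17.1% in CIDEA KO and then falling by 16.7% and 15.9%. From 24 h to 48 h the mean TPM of Tubb5 changed by -4.96% in WT and -8.59% in CIDEA KO. Its log2 fold changes on fitted counts were -0.03 and -0.02, and those of Tubb4b were -0.29 and -0.19. The fall of the total was not computed on another scale, so its size may depend on the scale. It was higher in CIDEA KO than in WT by 0.422% at 0 h and 3.20% at 24 h, where the groups overlapped, and by 4.19% at 48 h, where they did not. On the TMM-scaled CPM scale the values were -2.28%, 1.01% and 5.65%, so the direction at 0 h depended on the scale. Without Tubb6 the differences were -0.507%, 2.21% and 3.56%. These are shares of all TPM in a library, so fewer cells of a type and less RNA per cell cannot be told apart.

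The make-up of the total moved too. In WT, Tubb4b and Tubb5 together held 75.9% of it in ESCs, 83.2% after 24 h and 87.9% after 48 h. In CIDEA KO they held 76.97%, 85.7% and 89.2%. Tubb2a, Tubb2b and Tubb3 together held 22.7%, 15.0% and 9.78% in WT, against 20.7%, 11.5% and 7.97% in CIDEA KO. Tubb2b alone made up 14.4% and 14.4% of the total in WT at 0 h and 12.9% and 12.7% in CIDEA KO, and at 48 h 5.47% and 5.83% against 4.55% and 4.89%.

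Tubb6 remained a small part. Its share was 1.45% and 1.35% in WT against 2.23% and 2.39% in CIDEA KO at 0 h, 1.76% and 1.81% against 2.76% and 2.70% at 24 h, and 1.97% and 2.32% against 2.62% and 2.85% at 48 h. The differences were 0.913, 0.946 and 0.589 percentage points. In TPM, at 0 h, CIDEA KO had 21.3 more Tubb6, 35.4 less Tubb2b and 15.0 less Tubb2a than WT, with 32.5 more Tubb5, for a total 9.75 higher. At 24 h it had 27.2 more Tubb6, 55.7 less Tubb2b and 23.4 less Tubb2a, with 94.1 more Tubb5 and 45.4 more Tubb4b, for a total 84.2 higher. The differences of Tubb5 and Tubb4b that enter these sums did not pass the test, nor did those of Tubb2b and Tubb2a at 0 h. On fitted counts the log2 fold change of Tubb5 at 0 h was 0.002.

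**Figure D4:**
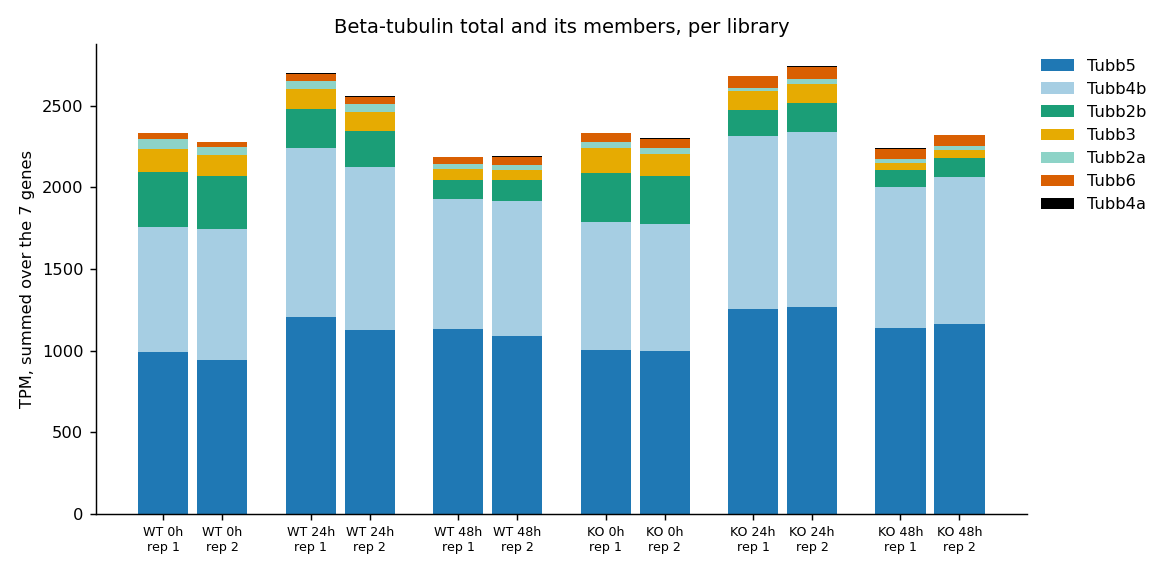
Summed TPM of the 7 beta-tubulin genes in each of the 12 libraries, as bars from 0 stacked by gene. Totals lie between 2189 and 2742 TPM and are highest at 24 h, Tubb5 and Tubb4b fill 75.3% to 89.5% of each bar, and Tubb6 is a thin layer (1.35% to 2.85%).

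At transcript level, 13 of the 14 annotated transcripts of the 7 genes were in the tables, and Tubb6-202 was not matched. A single main transcript carried each gene, with 92.5% to 100% of its gene's TPM. The largest of the others was a retained-intron transcript of Tubb5, at 1.64% to 6.79% of Tubb5. It was at 16.3 and 34.7 TPM, 56.7 and 23.1 TPM and 30.2 and 26.6 TPM in WT at 0 h, 24 h and 48 h, and at 29.4 and 26.9 TPM, 85.3 and 45.2 TPM and 25.9 and 42.01 TPM in CIDEA KO, the highest value being in the library that stood apart. Tubb4b-202 was at 3.88 to 22.5 TPM, and Tubb2b-202 was above 0 in 5 libraries and at most 9.63 TPM. The gene values given above are thus mostly those of the main transcripts.

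Positions are those of GRCm38. Tubb2a (chromosome 13, 34074274 to 34078007, minus strand) and Tubb2b (13, 34126748 to 34130466, minus) are 48.7 kb apart. Tubb5 (17, 35833921 to 35838306, minus) and Tubb4a (17, 57080066 to 57087782, minus) share a chromosome at a distance. Tubb4b (2, 25222160 to 25224702, minus) overlaps Fam166a on the other strand at its 3′ end, so reads of that stretch could be assigned to either gene. Tubb3 (8, 123411424 to 123422015, plus) is spanned by the readthrough gene Gm20388. Of the 31-base stretches of Tubb3, 3.26% were shared with other genes among the transcripts that had values, most often with Tubb6. Transcripts without values were not searched. Tubb6 (18, 67390717 to 67402749, plus) begins 22.9 kb after the end of Cidea.

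Because Tubb6 lies beside the deleted locus, the other genes around it were examined. Within 1 Mb, 17 genes other than Cidea and Tubb6 could be tested. Of these, edgeR called 0 at 0 h, 24 h and 48 h, against 1.26%, 1.46% and 0.671% of all genes. At these times 1, 2 and 3 of the 17 had an unadjusted p under 0.05 and DESeq2 called 0, 0 and 1. Over the mean of the 3 times edgeR called 1 of the 17, against 5.03% of all genes. It was Pmaip1, a pro-apoptotic BH3-only gene 932.2 kb away, at a log2 fold change of 0.35 (adjusted p = 0.013). For that mean, 3 of the 17 had an unadjusted p under 0.05 and DESeq2 called 1. Over the same mean, the nearest gene on the Cidea side, Impa2, which encodes an inositol monophosphatase, was at -0.22 (adjusted p = 0.086). On the other side Afg3l2, a mitochondrial protease 58.5 kb from the Tubb6 start, was at 0.12 (adjusted p = 0.18) and Prelid3a at -0.24 (adjusted p = 0.80). The median of the 17 was 0.02, against 0.59 for Tubb6. Since Tubb6 was picked for this difference, the contrast is a description and no test. Gnal (0.58) and Mc5r (0.68) were as high as Tubb6 with much wider errors and did not pass the test. Whether the deletion acted on Tubb6 through its position was not tested.

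**Figure D5:**
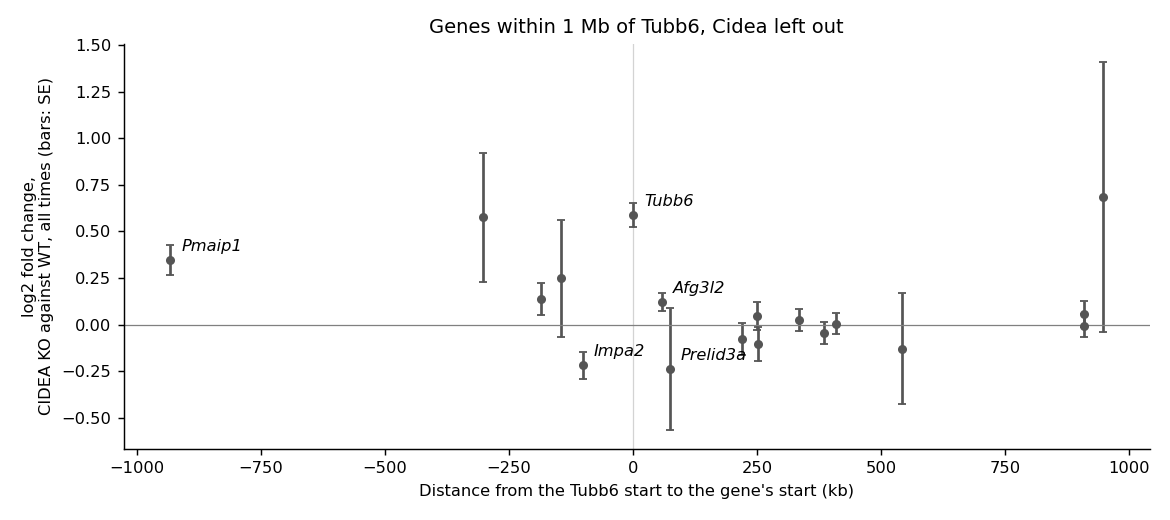
log2 fold change of CIDEA KO against WT over the mean of the 3 times, with SE bars, for Tubb6 and the 17 other tested genes within 1 Mb, against the distance of each gene's start from that of Tubb6 (kb). Tubb6, which was picked for this difference, is at 0.59. The closest to it with narrow bars are Impa2 (-0.22, SE 0.071) and Afg3l2 (0.12, SE 0.049).

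Markers were read beside these results because Tubb3 and Tubb6 are also used for other cell types. In the 12 libraries, 12 neural markers summed to 84.7 to 166 TPM, mostly Stmn2, a neuronal tubulin-binding protein. Of the 10 neural markers tested, edgeR and DESeq2 called 0 between CIDEA KO and WT at each time, with 1, 1 and 4 at an unadjusted p under 0.05. Over all genes edgeR called 1.26%, 1.46% and 0.671% at 0 h, 24 h and 48 h. Sox1 (0.61) passed over the mean of the 3 times, as 1 of the 10, against 5.03% of all genes. From 0 h to 48 h, 1 was higher and 2 lower in WT (23.6% of all genes called), and 1 was higher and 4 lower in CIDEA KO (25.0%), with Sox1 at -2.20 in CIDEA KO. The medians over the 10 were 0.07 and 0.37, above 0. The summed TPM of the 12 fell, as Tubb3 did. In WT the sum went from 148 and 166 TPM at 0 h to 84.7 and 86.7 TPM at 48 h. In CIDEA KO it went from 139 and 151 TPM to 87.0 and 98.3 TPM. Of 11 fibroblast markers, summed at 13.7 to 32.5 TPM, 7 were tested and Thy1 made up most of the sum (6.27 to 23.3 TPM). Postn was at 0 in all libraries. Over the mean of the 3 times Thy1 was lower in CIDEA KO (-0.79), with 1 of the 7 called, against 5.03% of all genes. The median over the 7 was 0.18, on the same side of 0 as Tubb6. Summed endoderm markers were at 2.93 to 6.85 TPM and mesoderm markers at 4.67 to 13.5 TPM. The part of other cell types in the tubulin values was not tested.

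Alpha-tubulin is the partner of beta-tubulin in the dimer. The 8 alpha-tubulin genes summed to 2496 to 3141 TPM, and the ratio of the beta to the alpha total was between 0.829 and 0.935 in all libraries. It was lower at 48 h than at 0 h with no overlap. The values were 0.909 and 0.911 at 0 h against 0.834 and 0.876 at 48 h in WT. In CIDEA KO they were 0.935 and 0.916 against 0.829 and 0.854. Of the 7 alpha-tubulins tested, 2 were higher and 0 lower in WT at 24 h than at 0 h (Tuba3a 0.63, Tuba1b 0.19), where 15.0% of all genes were called. In CIDEA KO, where 18.6% were called, 2 were higher and 1 lower (Tuba3a 0.69, Tuba1b 0.33, Tuba4a -0.34). Without the library that stood apart, Tuba3a was at 0.57 (adjusted p = 0.097) and Tuba4a at -0.25 (adjusted p = 0.14), leaving 1 higher and 0 lower. From 0 h to 48 h, 1 was lower in WT (Tuba1c -0.34) and 2 were higher in CIDEA KO (Tuba1a 0.30, Tuba1b 0.18), against 23.6% and 25.0% of all genes called. Tuba1b, the main alpha isotype here, thus rose at 24 h as Tubb4b and Tubb5 did. Between CIDEA KO and WT, edgeR called 0 at 0 h (2 at an unadjusted p under 0.05, 1 by DESeq2), Tuba4a was lower at 24 h (-0.64, adjusted p = 0.001), and Tuba1a was higher at 48 h (0.28, adjusted p = 0.034).

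Newly made tubulin is folded by prefoldin, the CCT chaperonin and the tubulin cofactors. Of 22 such genes 21 were tested. In WT 1 was higher at 24 h than at 0 h (Cct3 0.44) and 4 were higher at 48 h (Cct3 0.32, Tcp1 0.24, Cct8 and Cct2). Over all genes 15.0% and 23.6% were called. In CIDEA KO 18.6% of all genes were called at 24 h and 25.0% at 48 h. Of the 21, 6 were higher and 1 lower at 24 h (Cct3 0.50, Tbcb 0.47, Pfdn2 0.46, Tbcel -0.64), and 6 were higher and 0 lower at 48 h (Pfdn4 0.61, Cct3 0.50, Tcp1 0.39, Cct8 0.36). Without the library that stood apart these counts were 4 and 0 at 24 h, with Tbcb at 0.39 (adjusted p = 0.062), Pfdn2 at 0.28 (adjusted p = 0.1) and Tbcel at -0.34 (adjusted p = 0.16), and 9 and 0 at 48 h. Between CIDEA KO and WT, edgeR called 0 of the 21 at 0 h, 24 h and 48 h, against 1.26%, 1.46% and 0.671% of all genes. At these times 4, 2 and 4 had an unadjusted p under 0.05, and DESeq2 called 0.

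Genes whose pattern was most like each member's were named by Pearson's r of log2 values over the 12 libraries, among 12277 genes, as a description. The libraries share groups and times, and genes with the same course over time score high. Those most like Tubb6 were Ppp2r5d (r = 0.95), Zfp61 (0.93) and Rnf169 (0.93). Like Tubb2b were Mylpf, Fblim1 and Icam1 (0.99 each), like Tubb3 Hspb1 (0.99), Epop and Inhbb (0.98 each), and like Tubb2a H2afy2 (0.97), Acads (0.96) and Sgk2 (0.94). Like Tubb5 were Smpd4 and Rnps1 (0.98 each) and Hnrnpl (0.97), like Tubb4b Ms4a14 (0.98), Ncbp2 (0.97) and Ppp4c (0.96), and like Tubb4a Cycs (0.95), H2-T22 (0.94) and Hip1 (0.93). No beta-tubulin was among those most like another.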

How the data were processed

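Per the labels and the study's methods, the authors trimmed reads (Trimmomatic 0.33) and quantified transcripts with Kallisto 0.43.1, and deposited estimated counts and TPM per transcript for each library. The transcript set of the index is not given in the sources used here. Transcript values were summed to GENCODE vM21 (GRCm38) genes: 113580 of 115270 transcripts matched. Rounded counts were fitted with edgeR 4.0.16 (R 4.3.3; quasi-likelihood, TMM, filterByExpr) over 12 libraries with 6 group means, and p-values were adjusted over 17424 genes at a threshold of 0.05. Shares and totals came from TPM, with no test. Alternatives used DESeq2 1.42.0, limma 3.58.1 on log2(TPM + 1), other filters and scalings, length offsets, a replicate block and each library left out; fits were tested on simulated data. Named genes were all members, up to 4 called genes of largest change per list, genes within 1 Mb of Tubb6 and the 3 most similar genes per member. The sum of Tubb2a and Tubb2b and the lists without 1 library were added after the data were seen. The members and lists were chosen with earlier results of these data known.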

Additional observations from a re-analysis of the deposited data

How the results depend on the processing

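The 31 calls of single genes kept their direction in every alternative in which they could be fitted. Of them, 31 still passed with DESeq2, 31 with its size factors, 31 with a minimum of 10 counts, 29 without a filter, 21 with average transcript lengths as offsets and 20 with limma on log2(TPM + 1), and 24 of 29 when only the groups compared were fitted. The number of members called moved from 6 to 3 for CIDEA KO at 24 h against 0 h with length offsets, and from 5 to 2 for CIDEA KO at 48 h against 0 h with limma. Between CIDEA KO and WT it moved from 0 to 1 at 0 h with no filter (Tubb2a), from 2 to 0 at 24 h with only the groups compared, with length offsets or with limma, and from 2 to 1 (length offsets) or 0 (limma) over the mean of the 3 times. The cause was not tested.

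The change of the family total at 24 h was 9.15% in WT on the TMM-scaled CPM scale, and in CIDEA KO 12.8% on that scale and 12.9% on TMM-scaled TPM. The difference between genotypes, on these scales in turn, was -2.28% and -1.59% at 0 h, 1.01% and 1.03% at 24 h and 5.65% and 6.65% at 48 h, so at 0 h its sign turned.

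With one library left out at a time, the members called ranged from 2 to 4 (WT 24 h against 0 h), 2 to 5 (WT 48 h against 24 h), 3 to 6 (WT 48 h against 0 h), 3 to 6 (CIDEA KO 24 h against 0 h), 2 to 5 (CIDEA KO 48 h against 24 h) and 3 to 6 (CIDEA KO 48 h against 0 h). Between genotypes they ranged from 0 to 1 at 0 h, 0 to 2 at 24 h, 0 to 0 at 48 h and 2 to 2 over the mean of the 3 times, and for the interactions from 0 to 1 at 24 h and 0 to 0 at 48 h. A group left with 1 library was assumed to vary like the others. The lowest counts came without WT 0 h replicate 2 (2, 24 h against 0 h), WT 48 h replicate 1 (2, 48 h against 24 h, and 3, 48 h against 0 h), WT 48 h replicate 2 (3, 48 h against 0 h), CIDEA KO 0 h replicate 1 (3, 24 h and 48 h against 0 h), CIDEA KO 0 h replicate 2 or 48 h replicate 2 (3, 48 h against 0 h), and, between genotypes at 24 h, WT 24 h replicate 1 (0) or 2 (1). The count rose to 5 for CIDEA KO at 48 h against 24 h without CIDEA KO 24 h replicate 2, and to 1 between genotypes at 0 h without either CIDEA KO 24 h library. The change of the total ranged from 10.9% to 17.0% (WT at 24 h), 15.8% to 18.4% (CIDEA KO at 24 h), and between genotypes from -0.704% to 1.57% at 0 h, 0.507% to 6.04% at 24 h and 2.27% to 6.10% at 48 h.

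Same-numbered libraries deviated from their group means with correlations of -0.049 to 0.051 between groups, so no shared deviation was seen. These values cover all tested genes, including those with low counts, and cannot show whether same-numbered libraries were prepared together. With a replicate block 29 of the 31 calls passed: Tubb4a in WT from 24 h to 48 h (adjusted p = 0.053) and Tubb4b in CIDEA KO from 24 h to 48 h (adjusted p = 0.051) did not, leaving 3 and 2 members called there by edgeR. Depth limits Tubb4a above all, at 25 to 219 estimated counts.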

Other observations

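The enzymes that modify tubulin tails, and the proteins that bind microtubules, were read in the same fit. Of 18 tested modifying enzymes, 3 were higher and 2 lower in WT at 48 h than at 0 h, where 23.6% of all genes were called. Vash1, a detyrosinating peptidase, was at a log2 fold change of -2.10 and its paralogue Vash2 at 0.82, with Ttll4, a glutamylase, at 0.75 and Sirt2, a tubulin deacetylase, at -0.58. In CIDEA KO 4 were higher and 3 lower over the same interval (25.0% of all genes called), with Vash1 at -1.84, Vash2 at 1.47, Ttll6, another glutamylase, at 1.26 and Sirt2 at -0.88. Between CIDEA KO and WT, edgeR and DESeq2 called 0 of the 18 at 0 h, 24 h and 48 h, with 2, 2 and 0 at an unadjusted p under 0.05. Over all genes edgeR called 1.26%, 1.46% and 0.671%.

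Of 25 tested genes for microtubule-binding proteins, 5 were higher and 7 lower in WT at 48 h than at 0 h, where 23.6% of all genes were called. The called genes of largest change were all lower: Mapt, which encodes tau, was at -2.80, and the stathmins Stmn3, Stmn1 and Stmn2, which bind tubulin dimers, were at -2.59, -1.16 and -1.08. In CIDEA KO 4 were higher and 8 lower (25.0% of all genes called), with Stmn3 at -2.995, Mapt at -2.44, Map2 at -1.13 and Stmn1 at -0.82. Comparing genotypes, edgeR called 0 of the 25 at 0 h, 1 at 24 h, 0 at 48 h and 2 over the mean of the 3 times. Over all genes 1.26%, 1.46%, 0.671% and 5.03% were called. Between CIDEA KO and WT, Map1a was lower at 24 h (-0.63), though not without CIDEA KO 24 h replicate 1 (-0.40, adjusted p = 0.22 by edgeR), and Map6 (-0.69) and Map1a (-0.34) were lower over the mean of the 3 times. Of the 4 other tubulins, Tubg1 was lower in CIDEA KO at 48 h than at 24 h (-0.36), and without that library at -0.35 (adjusted p = 0.052).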
